A study of Mus musculus with 8 samples.

Results

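The genes described here are 36 genes of glycolysis and of the response to low oxygen, measured in mouse palatal shelves, which grow from the upper jaw and fuse to form the palate. They were taken by name and fall into 16 glycolytic enzymes, 5 transporters and mitochondrial gatekeepers of glucose carbon, 7 regulators of the hypoxia-inducible factors (HIF) and 8 genes known as HIF targets. Of the 36, 34 had a probe set that the array annotation assigns to that gene symbol alone, out of 18194 genes with such a probe set, and no signal was analysed here for Gpi1 and Eno1. Each gene was read from its probe set with the highest mean over all arrays. Total RNA of embryonic day 14.5 shelves was hybridised to 8 Affymetrix arrays. On 4 arrays the genotype was R26Pax3/Pax3 (replicates 1, 3, 4 and 7), and on 4 it was wild type (replicates 2, 6, 8 and 11), in littermates of a C57BL/6 X SV129 strain. The labels name no other allele, no driver of the R26Pax3 allele and no treatment, and they do not say whether a sample was 1 embryo or a pool, so p-values cover only the spread among the 8 samples, which may be technical in part. The question of the comparison is whether the expression of these genes differed in shelves that carried the allele of Pax3, a paired-box transcription factor.

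Glycolysis turns glucose into pyruvate in a chain of cytosolic enzymes, and lactate dehydrogenase turns pyruvate into lactate. HIF is a dimer of an oxygen-sensitive alpha subunit, Hif1a or Epas1, and the stable partner Arnt. In normal oxygen, prolyl hydroxylases of the Egln family mark the alpha subunit, and Vhl, part of a ubiquitin ligase, leads it to destruction, so HIF activity is set largely by protein stability and can change without a change in the RNA of Hif1a. When oxygen is low, HIF binds short DNA elements, many of them with the core ACGTG. It induces glycolytic enzymes, glucose transporters, Pdk1 and targets such as Vegfa and Bnip3.

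The ACGTG core was searched on both strands of the promoter windows in the RefSeq table of build GRCm38.p6, which run from 250 bases before to 50 after a transcript start, a reverse match reading CACGT. A full CACGTG counts once on each strand, and no other form of the core was searched. Of the 36 genes, 33 had a window there, Gpi1 and Eno1 included, and 23 of the 33 (69.7%) held the core in at least 1 window, against 21.8% of all 27025 genes of the table. The core contains a CG, and the members' windows were rich in it, with a median of 20 CG per window against 7 in all windows. By window, 53.2% of the members' 47 windows held the core, against 19.6% of all windows and 29% of windows with at least 20 CG. Windows are given for Ddit4, the HIF target in which the genotypes did not overlap, and for Bnip3 and Ldha, a HIF target and an enzyme in which they did. Capitals mark the matches, and all 3 sequences read 5′ to 3′ on the strand of the gene. The Ddit4 window (chr10:59951721-59952020, minus strand) held 1 match, that of Bnip3 (chr7:138909457-138909756, minus strand) held 1 CACGTG, and that of Ldha (chr7:46845554-46845853, plus strand) held 2 CACGTG and 1 further reverse match. Ldha has a further window in the table, which held no match and is not shown. The window with the most matches was the one chosen. The window of Vhl held none. A match is a description of the letters and not a measured binding site.
Ddit4: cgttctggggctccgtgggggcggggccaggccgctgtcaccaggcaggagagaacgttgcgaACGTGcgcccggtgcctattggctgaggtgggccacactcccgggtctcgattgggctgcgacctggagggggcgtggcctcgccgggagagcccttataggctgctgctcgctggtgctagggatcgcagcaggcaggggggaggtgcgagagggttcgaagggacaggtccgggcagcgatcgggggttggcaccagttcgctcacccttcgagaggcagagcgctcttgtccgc
Bnip3: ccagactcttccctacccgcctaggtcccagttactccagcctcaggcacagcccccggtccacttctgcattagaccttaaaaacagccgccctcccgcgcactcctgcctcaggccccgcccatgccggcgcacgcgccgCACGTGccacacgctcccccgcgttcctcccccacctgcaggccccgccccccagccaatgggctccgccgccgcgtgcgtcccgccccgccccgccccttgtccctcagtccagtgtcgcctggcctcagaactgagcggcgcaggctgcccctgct
Ldha: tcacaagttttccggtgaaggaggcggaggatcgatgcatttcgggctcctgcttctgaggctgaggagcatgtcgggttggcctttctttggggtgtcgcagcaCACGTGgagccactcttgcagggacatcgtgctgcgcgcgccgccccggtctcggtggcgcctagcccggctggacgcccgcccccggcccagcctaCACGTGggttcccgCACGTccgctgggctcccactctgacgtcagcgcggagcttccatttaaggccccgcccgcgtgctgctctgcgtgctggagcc

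The arrays carried the genotype of their labels. Pax3 read 532 to 722 on the 4 R26Pax3/Pax3 arrays and 142 to 176 on the wild type arrays on its brightest probe set. Few other probe sets passed the test. Of 27021 probe sets tested, 4 (0.0148%) passed an adjusted p of 0.05 in limma, 2 of them probe sets of Pax3. The remaining Pax3 probe set did not pass (82.5 ± 21.5 against 103 ± 14.0, log2 fold change -0.29). All 8 listed markers of palate mesenchyme, Prrx1, Osr2 and Twist1 among them, passed the filter on low signals, with summed signals of 16262 to 17764 in R26Pax3/Pax3 and 16895 to 19396 in wild type. Wild type replicates 2 and 11 stood at 1 end of the first principal component (-28.2 and -24.8, with 21.8% of the variance) and wild type replicate 6 at the other (27.1). The first 4 and the last 4 arrays in accession order took opposite signs on it. Each set of 4 holds 2 arrays of each genotype, and differences within both sets are given for some genes and for the enzymes as a group. Genes without them can differ between the sets too. The log2 fold change of Pkm, for example, was 0.23 within the first 4 arrays and -0.34 within the last 4.

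None of the 32 members tested passed the threshold over all probe sets (0 of 32 in limma, against 0.0148% of all probe sets, or 0.0074% higher and 0.0074% lower in R26Pax3/Pax3). At an unadjusted p under 0.05 there were 3, Ddit4, Pfkl and Vhl, against 4.86% of all probe sets. The genotypes did not overlap in 2 of 32, Ddit4 with all R26Pax3/Pax3 arrays higher and Vhl with all lower, against 2.73% of all probe sets (1.39% higher and 1.34% lower). The median log2 fold change, R26Pax3/Pax3 minus wild type throughout, was 0.01 over the members and 0.00 over all probe sets tested, with 17 members higher and 15 lower (13 and 19, and a median of -0.014, without wild type replicate 2). For 27 of 32 members the 95% interval of the log2 fold change lay within 0.5 on either side of 0. Of the other 2 members with a probe set, Gapdh is read by control probe sets that were kept out of the test and Adm lay below the filter. In bulk tissue, fewer cells of a type and less RNA per cell cannot be told apart.

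**Figure D1:**
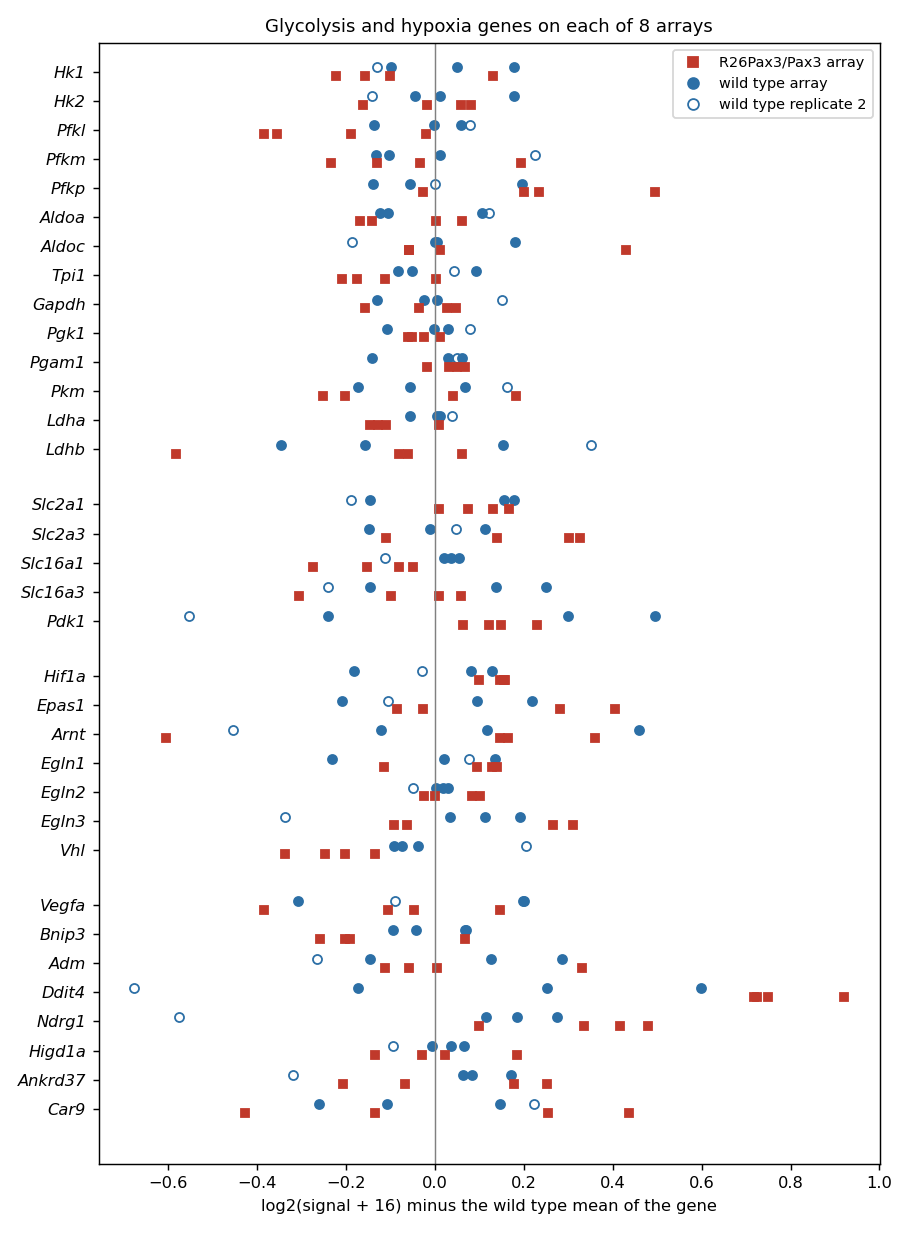
Each of the 34 genes on each array, as log2(signal + 16) minus the gene's wild type mean. Red squares are the 4 R26Pax3/Pax3 arrays, blue circles the 4 wild type arrays, and the open circle is wild type replicate 2. Blocks from top to bottom are glycolytic enzymes, transporters with Pdk1, HIF regulators and HIF targets. Only Ddit4 and Vhl show no overlap of the colours, and the open circle lies far to the left for Ddit4, Ndrg1 and Pdk1.

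Glycolytic enzymes differed little between the genotypes. Of 13 tested, 3 had a higher and 10 a lower mean in R26Pax3/Pax3, with a median log2 fold change of -0.06 and a range from -0.24 to 0.23, and none passed. The 95% intervals of the 13 lay between -0.53 and 0.52, and for 11 they lay within 0.5 of 0. Hexokinases, which trap glucose in the cell by phosphorylation, had log2 fold changes of -0.09 (Hk1) and -0.01 (Hk2).

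Phosphofructokinase commits sugar to glycolysis, and its 3 subunit genes took different sides. Pfkl, the liver type, read 599, 530.2, 461 and 471 on R26Pax3/Pax3 replicates 1, 3, 4 and 7, and 642, 606, 551 and 633 on wild type replicates 2, 6, 8 and 11. Replicate 1 of R26Pax3/Pax3 lay among the wild type values, and the other 3 lay below all of them. The means were 515 ± 63.3 and 608 ± 41.2 (SD, n = 4 each), or -0.24 on the log2 scale (SE 0.0977, limma adjusted p = 0.995). The difference was -0.04 within the first 4 arrays and -0.44 within the last 4. The other 2 probe sets of Pfkl had -0.12 and -0.08. Pfkp, the platelet type, had the highest fold change among the enzymes (111 ± 19 against 92.5 ± 11, log2 fold change 0.23, SE 0.133), with overlapping groups, and Pfkm, the muscle type, had -0.05.

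Apart from Aldoc and Ldhb, which are given below, the enzymes that follow in the pathway had log2 fold changes between -0.12 and 0.03 on their brightest probe sets. Pgk1, which makes the first ATP of the pathway, read 2980, 2907, 2853 and 2837 in R26Pax3/Pax3 and 3126, 3021, 2746 and 2952 in wild type, replicates in the order above. Its standard deviation over the 8 arrays, 0.058 on the log2 scale, was the second lowest among the 32 members after that of Egln2, and its log2 fold change was -0.03 (95% interval -0.17 to 0.11). That holds for its brightest probe set. The second had 0.02, and the third read 585 to 944 in R26Pax3/Pax3 and 502 to 694 in wild type, with a log2 fold change of 0.29, an SD over the 8 arrays of 0.289 and overlapping groups. Ldha, which makes lactate, read 3674, 3342, 3296 and 3383 against 3752, 3683, 3512 and 3664. The R26Pax3/Pax3 mean was lower (3424 ± 170 against 3653 ± 101, SD, n = 4 each), but replicate 1 lay among the wild type arrays and the log2 fold change of -0.09 (SE 0.0626) did not pass. Aldoa, an aldolase that splits the sugar, had -0.06, Tpi1, which interconverts the triose phosphates, -0.12, and Pgam1, a phosphoglycerate mutase, 0.03. Pkm, the pyruvate kinase, had -0.06 and varied more than these, from 1839.9 to 2489.5 over the 8 arrays.

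Aldoc, the aldolase best known from brain, and Ldhb, the lactate dehydrogenase subunit of heart type, varied more between arrays. Aldoc read 284 on R26Pax3/Pax3 replicate 1 and 180 to 237 on the other 7 arrays, with a log2 fold change of 0.08. Ldhb read 382 to 606 in R26Pax3/Pax3 and 453 to 744 in wild type, with a log2 fold change of -0.17 (SE 0.165). Its 4 probe sets all had lower means in R26Pax3/Pax3, from -0.17 to -0.09. Gapdh, on the brightest of its 3 control probe sets, read 6660, 6285, 5776 and 6571 against 7160, 6333, 5886 and 6472. The genotypes overlapped (log2 fold change -0.03, not tested).

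Several enzymes had their lowest or highest value on the same array. R26Pax3/Pax3 replicate 4 was the lowest of the 8 arrays for 6 of 13 enzymes (Hk2, Pfkl, Aldoa, Pkm, Ldha and Ldhb), or 46.2%, against 11% of all probe sets tested. Wild type replicate 2 was the highest for 6 of 13 (Pfkl, Pfkm, Aldoa, Pgk1, Ldha and Ldhb), again 46.2%, against 16.7% of all probe sets. The mean over the 13 enzymes, set to 0 for the wild type mean of each gene, was 0.08, 0.00, -0.15 and -0.12 on R26Pax3/Pax3 replicates 1, 3, 4 and 7 and 0.05, 0.01, -0.05 and -0.01 on wild type replicates 2, 6, 8 and 11. The R26Pax3/Pax3 arrays were the more spread (SD 0.106 against 0.0447) and their range held that of wild type. The median difference of the enzymes was 0.09 within the first 4 arrays and -0.15 within the last 4, so its sign was not the same in both.

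**Figure D2:**
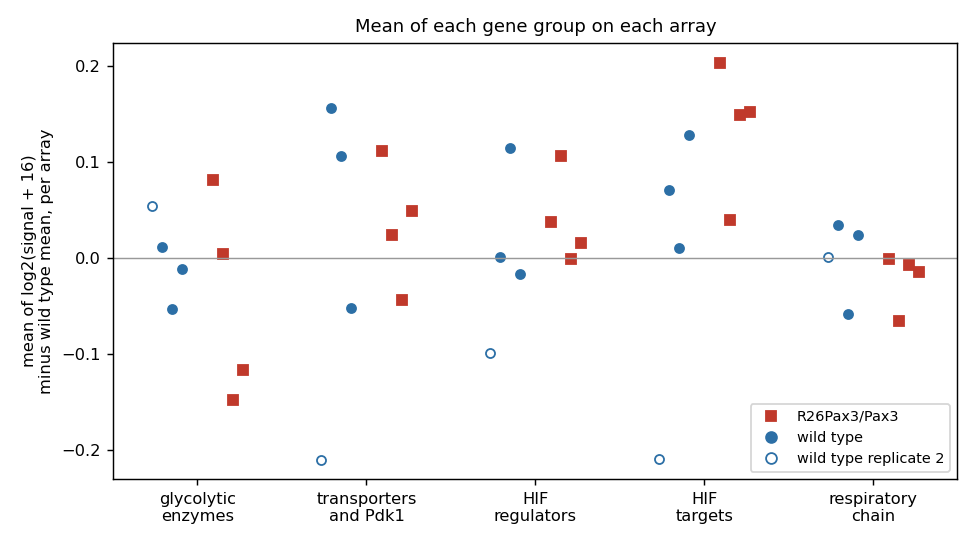
Mean of each gene group on each array, as log2(signal + 16) minus the wild type mean of each gene, averaged over the 13 enzymes, 5 transporters with Pdk1, 7 HIF regulators, 7 HIF targets and 21 respiratory chain genes tested. Red squares are R26Pax3/Pax3 and blue circles wild type, with wild type replicate 2 open. The genotypes overlap in all 5 groups, and replicate 2 is the lowest array for transporters with Pdk1, HIF regulators and HIF targets, at -0.21, -0.10 and -0.21.

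On their brightest probe sets, glucose transporters had slightly higher means in R26Pax3/Pax3 and lactate transporters slightly lower ones. None of the 5 genes of this group passed. Slc2a1, the widely expressed glucose transporter, read 961, 883, 924 and 986 in R26Pax3/Pax3 and 767, 994, 979 and 791 in wild type, replicates in the order above. Wild type replicates 2 and 11 were low, replicates 6 and 8 lay at the level of R26Pax3/Pax3, and the log2 fold change was 0.10 (SE 0.0975). That value was 0.03 without wild type replicate 2, -0.10 within the first 4 arrays and 0.29 within the last 4. Slc2a3, a high-affinity glucose transporter, had 0.16 (434 ± 60.1 against 384 ± 30.1), and its other tested probe sets had 0.23 and -0.32. Slc16a1, which carries lactate and other monocarboxylates, had -0.14 (543 ± 38.2 against 599 ± 31.6), or -0.18 without wild type replicate 2, where the groups no longer overlapped (limma adjusted p = 1.00). Slc16a3, which exports lactate, had a log2 fold change of -0.08 (65.9 ± 8.92 against 71.3 ± 14.0). The median of the group was 0.10, and it was -0.044 without wild type replicate 2.

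Pdk1 phosphorylates pyruvate dehydrogenase and so holds back the use of pyruvate in the mitochondria. On its brightest probe set it read 454, 435.5, 463 and 490.5 in R26Pax3/Pax3 and 278, 516, 593 and 349.8 in wild type. The R26Pax3/Pax3 arrays lay close together, between a low pair (replicates 2 and 11) and a high pair (6 and 8) of wild type arrays. The means were 461 ± 22.9 and 434 ± 145 (SD, n = 4 each, log2 fold change 0.14, SE 0.188). The difference was -0.30 within the first 4 arrays and 0.59 within the last 4. The 4 probe sets of Pdk1 differed by more than those of any other member, with log2 fold changes of 0.14, 0.28, -0.20 and -0.58 from the brightest to the dimmest. The dimmest read 23.8 to 29.8 in R26Pax3/Pax3 and 26.3 to 63.3 in wild type, below the array medians (43.5 to 44.9) on all 4 R26Pax3/Pax3 arrays and on wild type replicate 8.

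The HIF subunits and the genes that control them had small differences between the genotypes. Of 7 regulators, 6 were higher and 1 lower, with a median log2 fold change of 0.06 and none past the threshold (4 higher and 3 lower, with a median of 0.024, without wild type replicate 2), and the 95% intervals of all 7 lay within 0.5 of 0. Hif1a read 1927, 1929, 1852 and 1916 in R26Pax3/Pax3 and 1694, 1890, 1829 and 1522 in wild type. Wild type replicates 2 and 11 were low and replicate 6 lay within the R26Pax3/Pax3 values. The log2 fold change was 0.14 (SE 0.0775, 95% interval -0.03 to 0.31), and the other 3 probe sets had 0.22, -0.01 and -0.05. Epas1, the alpha subunit of endothelium and other cells, had 0.14 (509 ± 86.7 against 458 ± 63.2), and its second probe set, below the array medians throughout, had -0.11. Arnt varied most among the regulators, from 213 to 432 in R26Pax3/Pax3 and from 239 to 464 in wild type, with a log2 fold change of 0.02.

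Of the prolyl hydroxylases, Egln1, the main oxygen sensor, had a log2 fold change of 0.06, and its second probe set had -0.29. Egln2 was the steadiest member of all, at 393 to 430 in R26Pax3/Pax3 and 386 to 408 in wild type. Egln3, itself a HIF target, read 140, 102, 104 and 135 against 83.3, 112, 127 and 120, and its log2 fold change of 0.10 was -0.01 without wild type replicate 2.

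Vhl was the regulator with a lower mean in R26Pax3/Pax3. It read 276.5, 263, 238 and 254 in R26Pax3/Pax3 and 354, 296.5, 289 and 285 in wild type. All 4 R26Pax3/Pax3 arrays lay below all wild type arrays, though replicate 1 of the former and replicate 11 of the latter were close. The means were 258 ± 16.1 and 306 ± 32.2 (SD, n = 4 each), 1.19-fold higher in wild type. On the log2 scale the difference was -0.23 (SE 0.0968, 95% interval -0.44 to -0.02, limma adjusted p = 0.995). Its second probe set had -0.12 with overlap, and without wild type replicate 2, the highest array, the log2 fold change was -0.16. Within the first 4 arrays the difference was -0.11, and within the last 4 it was -0.35.

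HIF targets had no direction in common. Of 7 tested, 5 had a higher and 2 a lower mean in R26Pax3/Pax3, with a median log2 fold change of 0.03. That median is the value of Car9, whose signal lay below the array median on all 8 arrays, and Car9 is 1 of the 5. Ddit4, an inhibitor of the growth kinase complex mTORC1 that is induced by HIF, by glucocorticoids and by other stresses, had the largest difference of all members. It read 922, 1064, 927 and 943 in R26Pax3/Pax3 and 341, 848, 489.6 and 663 in wild type. All 4 R26Pax3/Pax3 arrays lay above all wild type arrays, and the wild type arrays were the more spread. The means were 964 ± 67.1 and 585 ± 219 (SD, n = 4 each), 1.65-fold higher in R26Pax3/Pax3. On the log2 scale this was 0.78 (SE 0.210, 95% interval 0.32 to 1.24). This did not pass over all probe sets (limma adjusted p = 0.669, unadjusted p = 0.00302). It was 0.61 within the first 4 arrays and 0.95 within the last 4. Without wild type replicate 2 the ratio was 1.45-fold and the log2 fold change 0.55 (limma adjusted p = 0.785), and the groups still did not overlap. Over all 16 other settings and left-out arrays the adjusted p lay between 0.223 and 1.00. Ddit4 has 1 probe set with its symbol alone on the array, so no second one checks it.

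Ndrg1, a stress-responsive gene of the N-myc downstream regulated family, had the second largest difference. It read 348, 276, 329 and 365 in R26Pax3/Pax3 and 167, 280, 315 and 294.5 in wild type. Replicate 2 was low, and the other 3 wild type arrays lay within the range of the R26Pax3/Pax3 values. The log2 fold change was 0.33 (SE 0.169, limma adjusted p = 1.00), and 0.14 without replicate 2. Within the first 4 arrays the difference was 0.06, and within the last 4 it was 0.60. All 5 probe sets of Ndrg1 had higher means in R26Pax3/Pax3, from 0.16 to 0.41, with overlapping groups on each and 0 past the threshold.

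The remaining HIF targets had small differences. Vegfa, the ligand that draws in blood vessels, read 231, 340.2, 283 and 296 against 286, 244, 353 and 354, with a log2 fold change of -0.10 and 0.07 on its second probe set. Bnip3, a mitochondrial inducer of mitophagy, had the lowest value among the targets (548 ± 59.3 against 607 ± 35.6, log2 fold change -0.15, SE 0.0908). Higd1a, a small protein of the mitochondrial inner membrane, had 0.01, and Ankrd37, an ankyrin repeat protein, had 0.04. Car9, a carbonic anhydrase that is a marker of hypoxic cells, read 15.9 to 42.1 in R26Pax3/Pax3 and 19.8 to 34.1 in wild type. Adm, the vasodilator peptide adrenomedullin, read 18 to 30.2 and 14.6 to 28.8. Neither exceeded the array median on any of the 8 arrays. Detection calls were not used, so whether either rose above background was not tested. The value of Car9 enters the counts and the median of the group, but says nothing of its size.

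**Figure D3:**
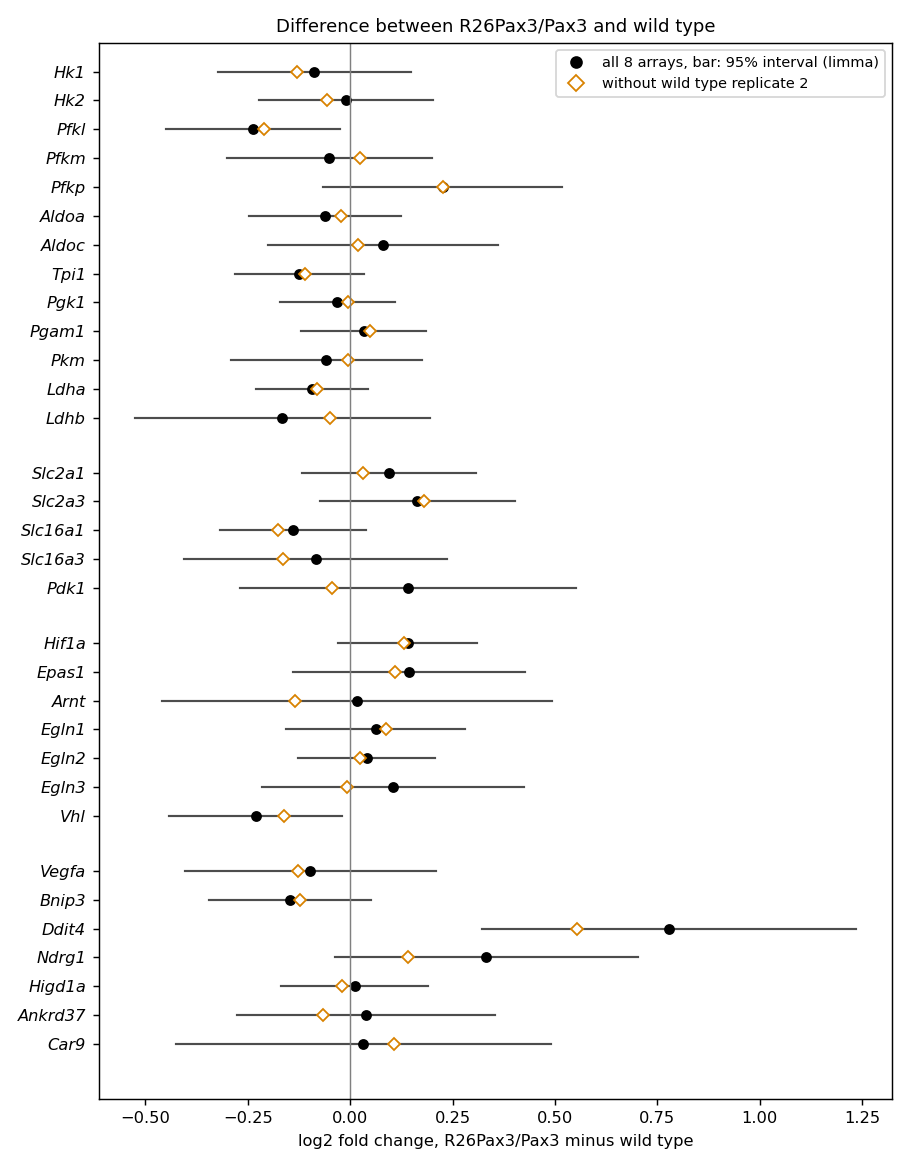
Log2 fold change (R26Pax3/Pax3 minus wild type) of the 32 tested genes, with black points and 95% intervals from limma over all 8 arrays and open diamonds without wild type replicate 2. Gene groups are separated by gaps in the order enzymes, transporters with Pdk1, HIF regulators and HIF targets. The interval leaves out 0 for Pfkl, Vhl and Ddit4 before adjustment, and the diamonds lie nearer to 0 for Ddit4 (0.55), Ndrg1 (0.14) and Pdk1 (-0.04).

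The comparison was also made without wild type replicate 2. It was the lowest of the 8 arrays for Aldoc, Slc2a1, Pdk1, Egln2, Egln3, Ddit4, Ndrg1 and Ankrd37. Leaving it out raises the wild type means of these genes by construction. Over the 32 members it was the lowest for 8 (25%) and the highest for 8 (25%), against 13.9% and 16.7% of all probe sets. The 8 genes in which it was highest were the 6 enzymes above, Vhl and Bnip3, and 3 of 7 HIF targets were among those in which it was lowest. Without it, 0 of 32 members passed in limma (0.0222% of all probe sets did), 1 had an unadjusted p under 0.05 (4.51%), and the groups did not overlap in 3 (5.11%), namely Slc16a1, Vhl and Ddit4. The median log2 fold changes were then -0.022 for the enzymes, 0.024 for HIF regulators and -0.021 for HIF targets, where 3 were higher and 4 lower. The sign changed for 6 of 32 members, none of which had a log2 fold change above 0.14 in size with all arrays.

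**Figure D4:**
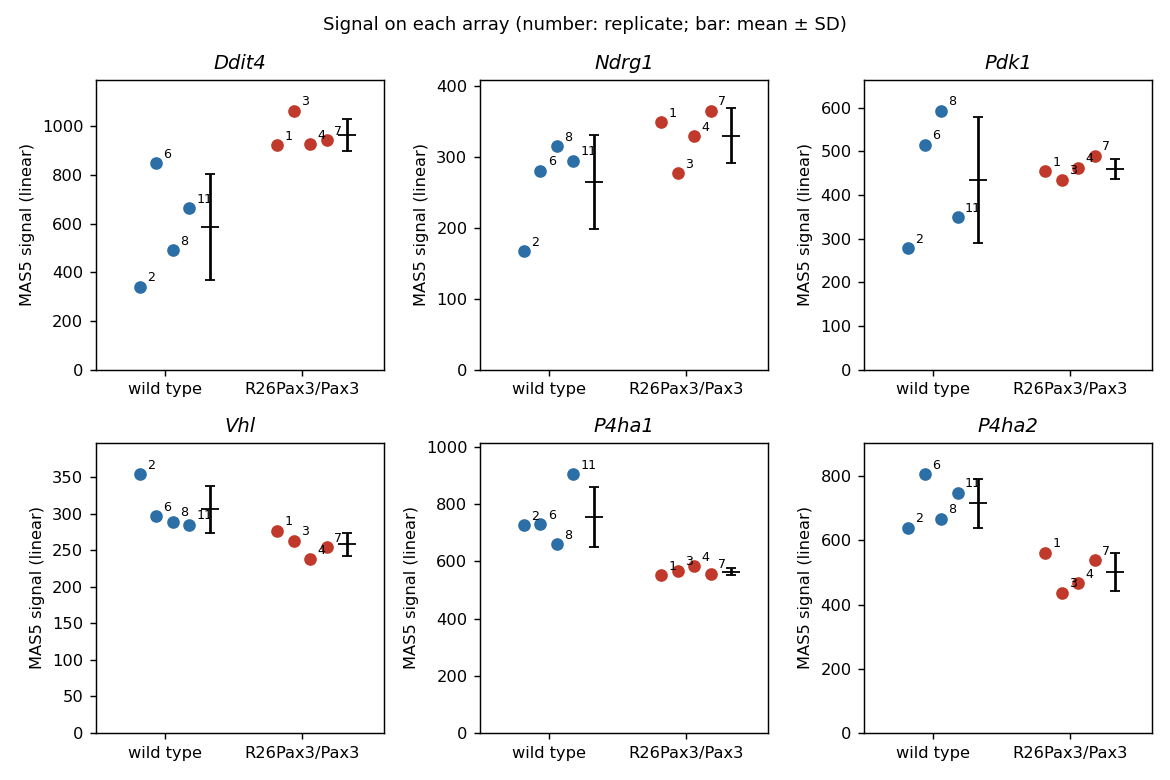
Signal on a linear scale from 0 for Ddit4, Ndrg1, Pdk1, Vhl, P4ha1 and P4ha2 on each array. Numbers beside the points are replicate numbers, and the bars give the mean ± SD of 4 arrays. The genotypes are separate for Ddit4, Vhl, P4ha1 and P4ha2, and wild type replicate 2 is the lowest array for Ddit4 (341), Ndrg1 (167) and Pdk1 (278).

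Further genes of both pathways were also read. Of 24 other genes of glycolysis and pyruvate use that were tested, 0 passed, 10 were higher and 14 lower, with a median log2 fold change of -0.03. Bpgm, which makes the red cell metabolite bisphosphoglycerate, had a higher mean (284 ± 29.0 against 212 ± 32.4, log2 fold change 0.40, SE 0.119, limma adjusted p = 0.814) on its brightest probe set, with overlapping groups, and -0.16 and 0.09 on the others. Red cell markers had higher means as well, 6 of the 7 measured, with summed signals of 5088 to 7794 in R26Pax3/Pax3 and 4902 to 5895 in wild type, and their part in the value of Bpgm was not tested. Epb42 and Hba-a1 lay below the array medians throughout. Pdp1, the phosphatase that reactivates pyruvate dehydrogenase, read 97.7 to 129 in R26Pax3/Pax3 and 81.5 to 94.5 in wild type without overlap (log2 fold change 0.28), but its second probe set had -0.10. Pdk2, a further pyruvate dehydrogenase kinase, had -0.32 and Gbe1, the glycogen branching enzyme, -0.21. Summed skeletal muscle markers read 1165 on R26Pax3/Pax3 replicate 7 and 3901 to 10427 on the other 7 arrays. On that replicate Pfkm (291) and Pgam2, the muscle phosphoglycerate mutase (75), were at their lowest. Over R26Pax3/Pax3 replicates 1, 3 and 4 the sums were 4265.5, 7330 and 9139, with Pfkm at 396, 336.5 and 314. Over wild type replicates 2, 6, 8 and 11 they were 8589, 3901, 7238 and 10427, with Pfkm at 406, 347, 313 and 320. The part of muscle in these values was not tested.

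Of 30 other genes of the HIF pathway tested, 0 passed, 13 were higher and 17 lower, with a median of -0.02 (18 higher and 12 lower, with a median of 0.016, without wild type replicate 2). The collagen prolyl hydroxylase subunits P4ha1 and P4ha2, both known HIF targets, had lower means in R26Pax3/Pax3 without overlap. P4ha1 read 552, 567, 583 and 557 in R26Pax3/Pax3 and 726, 729.7, 659.6 and 906 in wild type, 1.34-fold higher in wild type and -0.40 on the log2 scale (SE 0.0960, limma adjusted p = 0.556), with -0.25 on its second probe set. P4ha2 read 562, 437, 466 and 538 against 639.7, 807, 667 and 749, 1.43-fold higher in wild type and -0.50 on the log2 scale (SE 0.105, limma adjusted p = 0.403). They lay on the opposite side from Ddit4, in both sets of 4 arrays (-0.30 and -0.50 for P4ha1, -0.55 and -0.45 for P4ha2). Lox, a collagen cross-linking oxidase, had -0.39 (limma adjusted p = 0.683), and Bhlhe40, a transcriptional repressor, had 0.34 (limma adjusted p = 1.00). All 7 bone markers measured had lower means in R26Pax3/Pax3, with summed signals of 12770 to 14587 against 14660 to 18993, and their part in the values of P4ha1, P4ha2 and Lox was not tested. The 21 respiratory chain genes, read for comparison, had a median of 0.00, 10 higher and 11 lower, with 0 called and every 95% interval within 0.5 of 0.

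Markers of other cells were read beside the value of Ddit4. Summed signals of 12 epithelial markers were 6763 to 9122 in R26Pax3/Pax3 and 6291 to 7775 in wild type, with 9 of 12 higher. Those of 10 endothelial markers were 1860.1 to 2195 and 1873 to 1985, with 7 of 10 higher, and those of 9 macrophage markers were 1513 to 2436 and 1713 to 1960.2, with 5 of 9 higher. Of the neuron and glia markers 9 of 10 were higher, at 1287 to 2038 and 644 to 2163, with wild type replicates 2 and 11 the lowest. Of the cartilage markers 3 of 12 were higher, at 1094 to 2409 and 1568 to 3183, and of the skeletal muscle markers 0 of 15. In these lists, Ckm of muscle and Comp and Matn3 of cartilage were below the array median on all 8 arrays. The part of these lists in the value of Ddit4 was not tested.

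Probe sets of 1 gene checked each other only in part. Of 19 members with more than 1 tested probe set, 8 had log2 fold changes of 1 sign on all of them and 11 had both signs. Pfkl, Pfkp, Tpi1, Ldhb, Slc2a1, Egln3, Vhl and Ndrg1 kept 1 sign. Slc2a1, read by 3 probe sets, had 0.10, 0.12 and 0.15. Within the first 4 arrays these had -0.10, 0.32 and 0.39, and within the last 4 they had 0.29, -0.09 and -0.10. Their shared sign thus held only over all 8 arrays. Of the members with both signs, Pdk1, Slc2a3 and Arnt had the widest ranges, and Aldoa, with 5 probe sets, ran from -0.13 to 0.02.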

How the data were processed

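Total RNA (6 µg per labelling, Trizol, per the labels) was measured on 8 Affymetrix arrays, 4 per genotype as titled. The deposited intensities are on a linear scale, 1 per probe set. The submitters' processing notes name MAS5, with no version given. Array medians lay between 43.5 and 44.9 and the 2% trimmed mean was 150 on each array, so a change shared by most genes would be scaled away. Detection calls were not used here, and the number of arrays limits the precision.

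Signals were transformed to log2(signal + 16), which understates changes of dim genes. The 64 control probe sets and those whose mean signal did not exceed the 40th percentile (25.4) were left out. Genotypes were compared over 27021 probe sets with limma 3.58.1 in R 4.3.3 (lmFit, eBayes with intensity trend, no covariates), with Benjamini-Hochberg adjustment over all of them and a threshold of 0.05. The procedure was tested on simulated data. Members and lists were chosen with earlier results of these data known. All members are named, as are up to 4 genes of other lists by smallest p. Pgam2, Atf4, Ddit3 and the markers were named after their values were seen. The alternatives varied the pseudocount, filter, scaling, eBayes trend, probe set choice and arrays, with accession order as a block.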

Additional observations from a re-analysis of the deposited data

Results flagged for a closer look

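In 3 of 68 groups of 4 arrays (34 genes in each genotype) 1 array stood far from the other 3, with a gap to the nearest array, as a share of the group's range on the log2 scale, above Dixon's 95% critical value. Chance flags about 1 in 20 such groups, or 5%, and 4.41% were found. Aldoc read 284 on R26Pax3/Pax3 replicate 1 and 198 to 208 on the others of that genotype. Pgam1 read 1606 on wild type replicate 6 and 1811 to 1851 on the others. Ddit4 read 1064 on R26Pax3/Pax3 replicate 3 and 922 to 943 on the others.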

How the results depend on the processing

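No member passed the threshold under any of the 16 alternatives, and the lowest adjusted p of a member in any of them was 0.223, for Ddit4 without wild type replicate 6, where its log2 fold change was 0.98. Leaving out 1 array at a time gave 4 to 9 calls over all probe sets, the 9 without R26Pax3/Pax3 replicate 3, and log2 fold changes of Ddit4 between 0.55 and 0.98. The median log2 fold change then ranged from -0.091 to -0.022 for enzymes, from -0.044 to 0.15 for transporters with Pdk1, from 0.024 to 0.17 for HIF regulators and from -0.032 to 0.081 for HIF targets. The value of -0.044 for transporters came without wild type replicate 2, where the median was the value of Pdk1. That of 0.17 for regulators came without wild type replicate 8, where the median was the value of Hif1a. What set these arrays apart was not tested. With the mean over all probe sets of a gene, 5 of 31 members moved by more than the spread between replicates and 6 changed sign, none of them above 0.16 in size at first. Pseudocounts of 1 and 64, both other filters, quantile normalization, the block by accession order and the fit without intensity trend left every sign of the tested members as it was and gave 4 calls each over all probe sets. No paired analysis was made, because the sample titles do not say which samples shared a litter, and the genotypes share no replicate numbers. Dim genes limit the result, since Adm and Car9 lay below the array medians and were not tested against background.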

Other observations

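Genes of the integrated stress response, through which Ddit4 can also be induced, had log2 fold changes between -0.01 and 0.33. Their part in the value of Ddit4 was not tested. Of 7 tested, 5 had a higher and 2 a lower mean in R26Pax3/Pax3, with a median log2 fold change of 0.08 and 0 past the threshold in limma (0 at an unadjusted p under 0.05). Atf4, the transcription factor at the centre of that response, had a mean of 1132 ± 60.4 in R26Pax3/Pax3 against 1143 ± 74.2 (SD, n = 4 each), and Ddit3, a factor of stress-induced cell death, had 112 ± 14.2 against 113 ± 17.2. Asns, the asparagine synthetase that Atf4 induces, had 0.09, Cebpb, a transcription factor, had 0.08, and Sesn2, an inhibitor of mTORC1, had 0.15. Atf3 had 0.33, but it did not exceed the array median on any array.

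Among 10 immediate early genes tested, 8 had a higher and 2 a lower mean, with a median of 0.15 and 0 past the threshold. Ier3 read 265, 178, 283 and 260.1 on R26Pax3/Pax3 replicates 1, 3, 4 and 7, and 134, 150.5, 137 and 136 on wild type replicates 2, 6, 8 and 11, with no overlap (log2 fold change 0.74, SE 0.133, limma adjusted p = 0.206). Unlike Ddit4, it had its spread among the R26Pax3/Pax3 arrays, and wild type replicate 2 did not stand apart.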
